A study of Mus musculus with 10 samples.

Results

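Voltage-gated sodium channels open when a neuron is depolarised and carry the inward current of the action potential. Each channel has a large pore-forming alpha subunit, which carries the voltage sensors and the selectivity filter, and smaller beta subunits, which modify gating and help place the channel at the cell surface. The 7 genes described here are 4 alpha subunits of the brain (Scn1a, Scn2a, Scn3a and Scn8a) and 3 beta subunits (Scn2b, Scn3b and Scn4b). They were taken by symbol from the 21862 genes in the authors' table of normalized counts. In the rodent cortex Scn3a is known as the alpha subunit of embryonic life and Scn2a as that of developing excitatory axons, while Scn8a becomes the main subunit of the axon initial segment in mature neurons and Scn1a is best known from interneurons.

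RNA came from primary cortical neurons of C57BL/6J mouse embryos at stage E16.5, cultured with 0.5 µM AraC (a drug that kills dividing cells) and infected with a lentivirus. The 4 groups were H2BE virus with BDNF (H2BE-BDNF, 2 libraries), control virus with BDNF (BDNF, 3 libraries), H2BE virus without BDNF (H2BE, 2 libraries) and control virus without BDNF (Control, 3 libraries). The labels give no other genetic change in any group. H2BE is a variant of histone H2B driven by a constitutive promoter, BDNF is a neurotrophin that acts through the receptor TrkB, and RNA was taken 24 h after its addition. Nothing in the labels ties replicates to separate cultures, so the p-values reflect the spread among these samples alone, and that spread may be technical.

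Library totals ran from 5058074 to 14142545 counts. Control replicate 3 exceeded Control replicate 1 at 0 of 48526 genes, and in the BDNF group replicate 3 was likewise above replicate 1 at 0 genes, so each held a subset of the counts of replicate 1 and was counted with it as 1 sample (n = 2 in every group). The tests used the 8 distinct libraries. Levels are CPM, the library-size-scaled counts after TMM normalization, and replicate 1 of BDNF and of Control is the mean of the pair. The tests took replicate 1 alone of each pair, so fold changes need not equal the ratio of the printed levels. The virus check held in the RNA: H2bc21, which encodes H2BE, stood at 33.6 ± 2.2 CPM in H2BE-BDNF against 3.99 ± 0.15 in BDNF, and at 39.2 ± 5 CPM in H2BE against 5.28 ± 0.074 in Control (SD, n = 2). Summed CPM of 8 pan-neuronal markers was 7290 and 7420 in H2BE-BDNF, 7400 and 7680 in BDNF, 7140 and 7250 in H2BE and 7000 and 7120 in Control. Markers of other cells were also present, while the microglial Tmem119 and the oligodendrocyte markers Mag and Sox10 each had 0 counts in 7 of the 8 distinct libraries.

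Of the 7 subunits 6 passed the filter on low counts, which kept 13452 genes. Scn4b, a beta subunit known from fast-spiking neurons, did not. It had 5 and 8 counts in H2BE-BDNF, 6 and 11 in BDNF replicates 1 and 2, 5 and 4 in H2BE, and 6 and 4 in Control replicates 1 and 2. These counts overlapped between all groups and no fold change is given. Levels of different genes were compared per kilobase of the longest coding transcript in GENCODE M21, which shares the mm10 assembly named in the submitters' processing notes.

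In this unit Scn2a was the most abundant subunit in each of the 8 samples and Scn3b came next. Scn2a averaged 36.5 ± 1.8 CPM per kb in H2BE-BDNF, 38.3 ± 1.7 in BDNF, 42.2 ± 0.51 in H2BE and 38.2 ± 3.2 in Control (SD, n = 2 for all group means). Scn3b followed with 28.7 ± 1.3 in H2BE-BDNF, 30.3 ± 1 in BDNF, 40.8 ± 0.12 in H2BE and 35.9 ± 1.3 CPM per kb in Control. Over the 2 samples of a group the values of Scn2a and Scn3b overlapped in Control (35.9 and 40.5 for Scn2a, 34.9 and 36.8 for Scn3b) and did not overlap in the other groups. Scn2b lay between 18 and 21.3 CPM per kb over the 8 samples. Scn8a lay between 10.4 and 20.3, below Scn2b in the samples without BDNF and within its range with BDNF. Scn3a (7.85 to 11.7) and Scn1a (6.9 to 10.7) overlapped each other, and Scn4b came last at 0.0707 to 0.232 CPM per kb. Over all tested genes with a known length, mean levels placed Scn2a at percentile 85.7 and Scn1a at percentile 48.4.

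**Figure D1:**
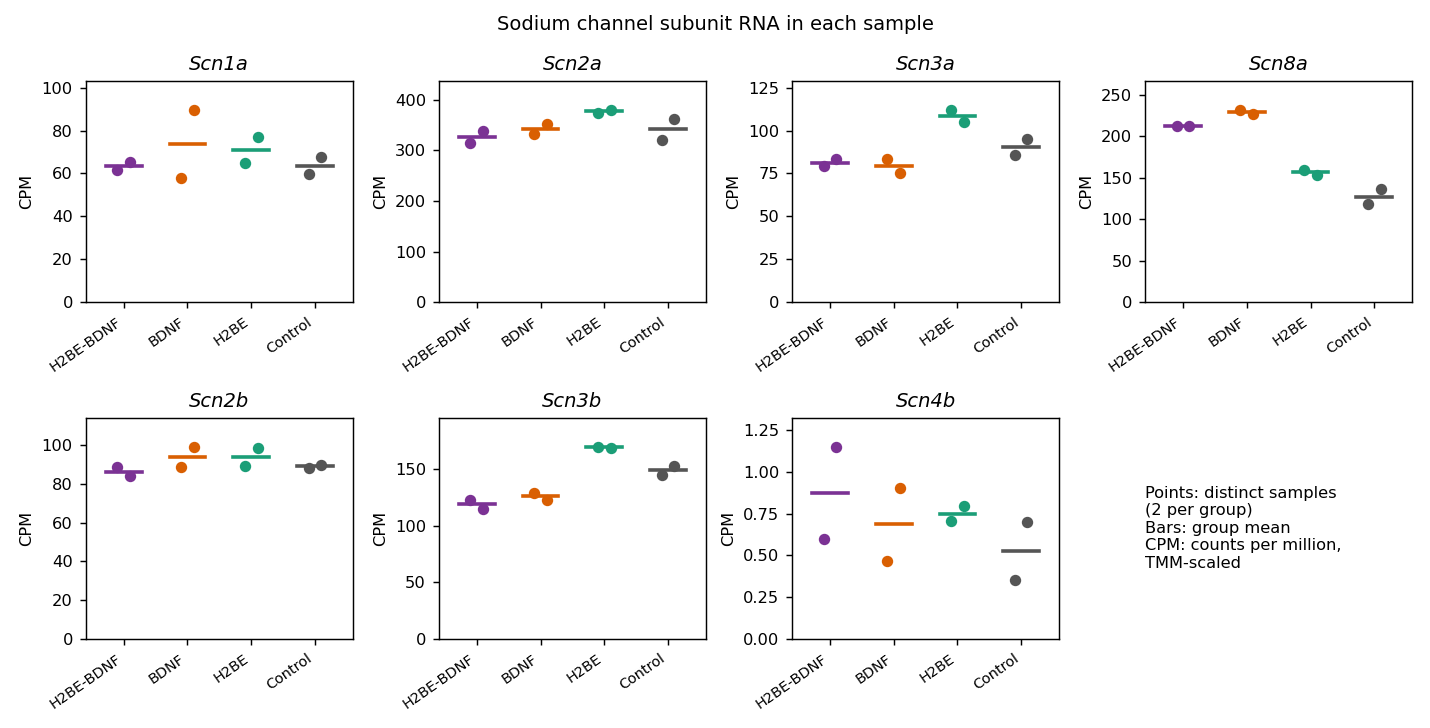
Level of each subunit in CPM (vertical axes, each from 0) in the 2 distinct samples of each group, with the group mean as a bar. Scn8a is higher in all samples with BDNF (212 to 232 CPM) than in all samples without it (119 to 160 CPM), while Scn3b is lower with BDNF (115 to 129 CPM) than without it (145 to 170 CPM).

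Scn8a, the alpha subunit that dominates at mature axon initial segments and nodes of Ranvier, was the only tested subunit that rose with BDNF, and it rose under both viruses. Its gene lies on chromosome 15, from 100869858 to 101045938 on the plus strand of mm10, and its longest coding transcript has 11436 bases. RefSeq (GRCm38.p6) lists 2 starts for Scn8a. The sequence before the upstream start, chr15:100870395-100870644 on the plus strand, is shown for that reason and lies inside the gene as GENCODE M21 bounds it. Capitals mark a match to an EGR motif, the sequence bound by the early growth response transcription factors.
Scn8a upstream start, 250 bases: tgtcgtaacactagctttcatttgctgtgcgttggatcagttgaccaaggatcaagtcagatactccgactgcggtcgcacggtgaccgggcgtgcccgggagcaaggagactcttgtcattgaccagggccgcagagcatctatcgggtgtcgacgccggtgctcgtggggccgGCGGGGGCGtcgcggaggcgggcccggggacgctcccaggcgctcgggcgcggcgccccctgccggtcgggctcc
The search covered both strands of the 250 bases before each start for EGR (GCGTGGGCG or GCGGGGGCG), CRE (TGACGTCA), its core (TGACG, which every CRE also holds), AP-1 (TGANTCA) and the GC box (GGGCGG). The EGR match of Scn8a begins 75 bases before the start, and an EGR match stood in 3.06% of 32851 such windows in RefSeq. The 7 windows listed for Scn1a, Scn2a (2 starts), Scn2b, Scn4b and Scn8a (2 starts) held no other match to these motifs, which occurred in 1.55% (CRE), 17.8% (core) 6.75% (AP-1) and 32.7% (GC box) of all windows. A match describes letters in a window and is no evidence of binding.

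BDNF was first compared with no BDNF under the control virus. Scn8a stood at 232 and 227 CPM in BDNF and at 119 and 136 CPM in Control. Both BDNF samples lay far above both Control samples. The fold change was 1.74 (log2 fold change 0.80, SE 0.06, adjusted p = 3.88e-08; edgeR quasi-likelihood test with Benjamini-Hochberg adjustment over 13452 genes, as for every adjusted p without another name).

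Scn3a, the alpha subunit of the embryonic brain, and Scn3b, a beta subunit that associates without a covalent bond, moved the other way. Scn3a had 83.7 and 75.1 CPM in BDNF, against 85.5 and 94.8 CPM in Control. In these levels the groups did not overlap, and 83.7 in BDNF was close to 85.5 in Control. Both of these are means with the subset replicate 3, which the test left out. Scn3a fell by 0.25 on the log2 scale (SE 0.07, adjusted p = 0.0127), a call lost with DESeq2 (adjusted p = 0.0807), with the third replicates in place of the first (-0.13, adjusted p = 0.286), with all 10 libraries as replicates (-0.13, adjusted p = 0.0972), without BDNF replicate 2 (0.0876) and without Control replicate 2 (0.0802). Scn3b had 129 and 123 CPM in BDNF and 145 and 153 CPM in Control. It fell by 0.29 on the log2 scale (SE 0.06, adjusted p = 0.00115), and kept its call under every alternative run, at adjusted p between 0.000261 and 0.0257.

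The other subunits showed no called change with BDNF under the control virus. Scn2a had 332 and 353 CPM in BDNF and 321 and 362 CPM in Control, with overlapping groups and a log2 fold change of -0.02 (95% interval -0.15 to 0.11, adjusted p = 0.827). Scn2b, a beta subunit that is linked to alpha subunits by a disulfide bond, had 88.6 and 99.3 CPM in BDNF and 88.5 and 89.8 CPM in Control (log2 fold change 0.07, 95% interval -0.09 to 0.22, adjusted p = 0.542).

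Scn1a had the largest SE of the log2 fold change among the tested subunits (0.21). Its CPM was 57.8 and 89.6 in BDNF and 59.6 and 67.5 in Control. The BDNF samples lay on either side of both Control samples. The log2 fold change was 0.17 (95% interval -0.32 to 0.66, adjusted p = 0.577), and the direction rested on single libraries: it was 0.48 without BDNF replicate 1 (adjusted p = 0.00027) and -0.20 without BDNF replicate 2 (adjusted p = 0.137). In all, 1 subunit rose, 2 fell and 3 did not pass among 6 tested, where 31.4% of all tested genes were called (16.8% higher, 14.7% lower). The median log2 fold change of the 6 was 0.02, beside -0.01 for all tested genes.

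The same question was asked under the H2BE virus, comparing H2BE-BDNF with H2BE, and here 1 subunit rose and 3 fell. Scn8a had 213 and 212 CPM in H2BE-BDNF and 160 and 154 CPM in H2BE. The groups were well apart, and the ratio was 1.34, a rise of 0.43 on the log2 scale (SE 0.06, adjusted p = 7.81e-05).

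Scn3b had 123 and 115 CPM in H2BE-BDNF, against 170 and 169 CPM in H2BE. It fell by 0.51 on the log2 scale (SE 0.06, adjusted p = 1.17e-05). Scn3a had 79.4 and 83.3 CPM in H2BE-BDNF, against 112 and 105 CPM in H2BE, and fell by 0.42 (SE 0.07, adjusted p = 0.00043). In both genes the samples with BDNF lay below those without it, with no overlap.

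Scn2a, the most abundant alpha subunit, had 315 and 338 CPM in H2BE-BDNF and 374 and 380 CPM in H2BE. Its groups did not overlap and it fell by 0.22 on the log2 scale (SE 0.06, adjusted p = 0.017). That call was lost without H2BE replicate 2 (adjusted p = 0.0586), H2BE replicate 3 (0.0763) or H2BE-BDNF replicate 2 (0.163). Scn2b had 88.6 and 83.9 CPM in H2BE-BDNF and 89.2 and 98.5 CPM in H2BE (log2 fold change -0.12, 95% interval -0.29 to 0.05, adjusted p = 0.306). Scn1a had 61.7 and 65.5 CPM in H2BE-BDNF and 64.8 and 76.9 CPM in H2BE (log2 fold change -0.15, 95% interval -0.69 to 0.38, adjusted p = 0.685). The background was 25.9% of tested genes called (13.5% higher, 12.4% lower), and the median log2 fold change was -0.18 over the 6 subunits and 0 over all tested genes.

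**Figure D2:**
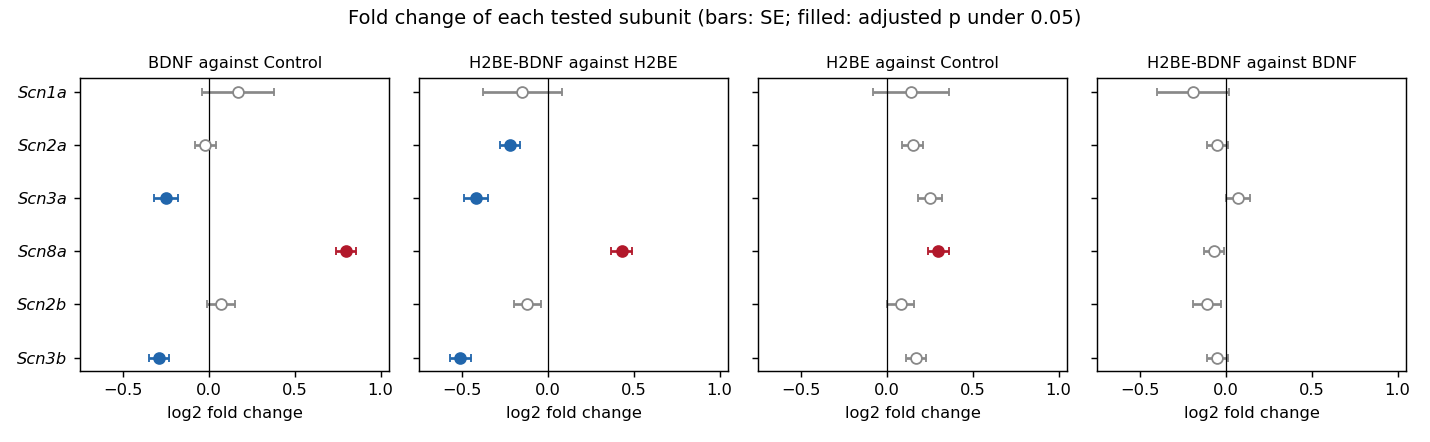
Log2 fold change (horizontal axes) of the 6 tested subunits in 4 comparisons, with bars for the SE; red filled points were called higher, blue filled points lower, and open points did not reach an adjusted p of 0.05. Scn8a is called higher in both BDNF comparisons (0.80 and 0.43) and with H2BE alone (0.30), and Scn3a and Scn3b are called lower in both BDNF comparisons.

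Markers of other cells differed with BDNF in the same libraries. Summed CPM of 7 progenitor markers was 237 and 232 in H2BE-BDNF against 97.3 and 99.3 in H2BE, and 225 and 241 in BDNF against 108 and 108 in Control. Vim, the intermediate filament of progenitors and glia, made up most of this, at 183 ± 8.3 CPM in H2BE-BDNF against 57.1 ± 3.2 in H2BE, and 174 ± 7 in BDNF against 63.6 ± 5.1 in Control. The 9 oligodendrocyte lineage markers summed to 83.7 and 87.5 CPM in H2BE-BDNF against 51.5 and 47.2 in H2BE, and to 76.4 and 84.5 in BDNF against 46.3 and 43.4 in Control. Mbp, a myelin protein, was the only one of 7 tested oligodendrocyte markers called in either comparison, at 60.8 ± 1.1 CPM in H2BE-BDNF against 25.2 ± 0.87 in H2BE, and 51.9 ± 1 in BDNF against 19.9 ± 0.0058 in Control. The 7 microglial markers summed to 23.2 and 22.4 CPM in H2BE-BDNF against 6.77 and 5.35 in H2BE, and to 22 and 23.8 in BDNF against 9.81 and 9.06 in Control. Cd68, a lysosomal protein of phagocytes, made up most of the microglial sum with BDNF (18.6 ± 0.96 CPM in H2BE-BDNF against 3.52 ± 0.21 in H2BE, and 17.8 ± 0.96 in BDNF against 4.86 ± 0.47 in Control), and it was the only one of 3 tested microglial markers called in BDNF against Control, where the list's median log2 fold change was -0.45. In H2BE-BDNF against H2BE 2 of the 3 tested microglial markers were called higher, with a median of 2.38. These were Cd68, whose own log2 fold change was the median, and Aif1, at 1.35 ± 0.28 CPM in H2BE-BDNF against 0.17 ± 0.04 in H2BE. The H2BE values of Aif1 (0.141 and 0.198 CPM) lay below the level of 3 counts in those libraries (0.424 and 0.593 CPM). The Aif1 call thus rests on values near the floor. The part of these other cells in the subunit results was not tested, and in bulk RNA fewer cells of a type and less RNA per cell cannot be told apart. The 8 interneuron markers summed to 1770 and 1730 CPM in H2BE-BDNF, 2020 and 2190 in BDNF, 1830 and 1900 in H2BE and 2150 and 2080 in Control. The 8 excitatory neuron markers gave 1110 and 1090 CPM in H2BE-BDNF, 1040 and 998 in BDNF, 1270 and 1290 in H2BE and 1130 and 1120 in Control. The 8 astrocyte markers gave 449 and 442 CPM in H2BE-BDNF, 470 and 435 in BDNF, 455 and 456 in H2BE and 369 and 384 in Control. Slc1a2 made up most of this sum, at 395 ± 2.9 CPM in H2BE-BDNF, 378 ± 53 in BDNF, 399 ± 4.6 in H2BE and 315 ± 19 in Control. Of 7 tested astrocyte markers 2 were called higher and 0 lower in BDNF against Control. In H2BE-BDNF against H2BE 0 were called higher and 1 lower, Aqp4 (log2 fold change -1.06, adjusted p = 0.0181).

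The make-up of the alpha subunit pool was then described as each gene's share of the 4 alpha subunits per kilobase within a sample. Scn8a made up 26.8% and 25.5% of the pool in H2BE-BDNF, 27.8% and 25.4% in BDNF, 18.6% and 17.7% in H2BE and 16.7% and 16.9% in Control. Its share was higher in every sample with BDNF than in every sample without it. Scn2a made up 50.7% to 51.9% in the 4 samples with BDNF and 55.6% to 57.6% in the 4 without. Scn3a made up 10.1% to 12% with BDNF and 14.1% to 15.5% without, and Scn1a showed no such split (9.43% to 13.7% with BDNF, 10.3% to 12% without). Scaling by coding length alone gave Scn8a a larger share, 31.2% in H2BE-BDNF, 31.8% in BDNF, 22.1% in H2BE and 20.6% in Control, in the same order. The summed level of the 4 alpha subunits was 69.5 and 72.9 CPM per kb in H2BE-BDNF, 73.1 and 77.8 in BDNF, 75.3 and 76.3 in H2BE and 62.4 and 70.3 in Control. Without correction the sum was lower in H2BE-BDNF than in H2BE and higher in BDNF than in Control, without overlap in either pair (no test was made). The trend with transcript length described below differed between libraries and was lowest in Control (-0.0679 and -0.0342 per doubling). It was not removed from these sums, so their opposite directions under the 2 viruses may reflect it, which was not tested. The 3 beta subunits summed to 48.8 and 46 CPM per kb in H2BE-BDNF, 50.2 and 51.1 in BDNF, 60.2 and 62 in H2BE and 54 and 56.3 in Control, lower in all samples with BDNF.

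**Figure D3:**
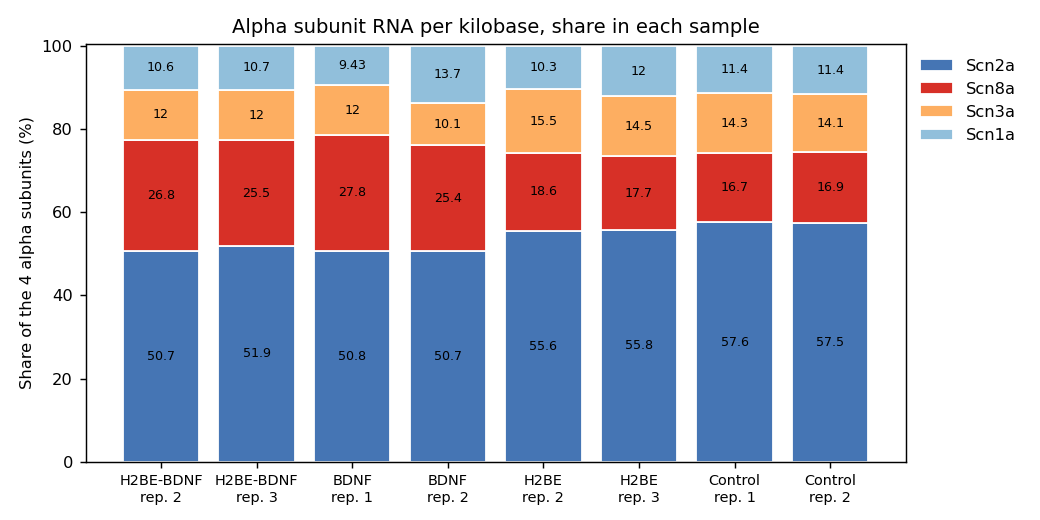
Share of each alpha subunit in the summed alpha subunit level per kilobase of transcript (vertical axis, percent), 1 bar per distinct sample. The red Scn8a segment is 25.4% to 27.8% in the 4 samples with BDNF on the left and 16.7% to 18.6% in the 4 samples without it.

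The H2BE virus was next compared with the control virus in neurons without BDNF. All 6 tested subunits had log2 fold changes above 0 (0.08 to 0.30, median 0.16, beside a median of 0 over all tested genes), and Scn8a passed the test, where 2.53% of all tested genes were called (1.54% higher, 0.989% lower). Scn8a had 160 and 154 CPM in H2BE and 119 and 136 CPM in Control, without overlap, at a ratio of 1.23, or 0.30 on the log2 scale (SE 0.06, adjusted p = 0.0222). It no longer passed when Control replicate 1 (0.21, adjusted p = 0.404), H2BE replicate 2 (0.27, adjusted p = 0.242) or H2BE replicate 3 (0.33, adjusted p = 0.0508) was left out, nor once the trend with transcript length and GC content was removed (0.11, adjusted p = 0.429).

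Scn3a had 112 and 105 CPM in H2BE and 85.5 and 94.8 CPM in Control (log2 fold change 0.25, 95% interval 0.09 to 0.40, adjusted p = 0.0816). It passed when only these groups entered the fit (adjusted p = 0.0189). It also passed with all 10 libraries as replicates (0.0176), but that setting counts the subset libraries as separate replicates. It did not pass with the length and GC correction (0.15, adjusted p = 0.452). With a library left out the log2 fold change was 0.20 to 0.29. Scn3b had 170 and 169 CPM in H2BE and 145 and 153 CPM in Control (log2 fold change 0.17, 95% interval 0.04 to 0.30, adjusted p = 0.135), and Scn2a had 374 and 380 CPM in H2BE and 321 and 362 CPM in Control (0.15, 95% interval 0.01 to 0.28, adjusted p = 0.218). Samples did not overlap in these 3 genes, though none was called. Scn1a (0.14, adjusted p = 0.806) and Scn2b (0.08, adjusted p = 0.664) overlapped between groups.

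Among neurons given BDNF, no subunit was called between H2BE-BDNF and BDNF. Of 6 tested, 0 passed, 0 had an unadjusted p under 0.05 and DESeq2 called 0. The background was also low, 0.0297% of tested genes (0.0149% higher and 0.0149% lower). Scn8a had 213 and 212 CPM in H2BE-BDNF and 232 and 227 CPM in BDNF (log2 fold change -0.07, 95% interval -0.20 to 0.05, adjusted p = 0.659). Scn3a (0.07, 95% interval -0.08 to 0.22), Scn3b (-0.05, -0.17 to 0.08), Scn2a (-0.05, -0.18 to 0.08), Scn2b (-0.11, -0.27 to 0.05) and Scn1a (-0.19, -0.68 to 0.31) had intervals that span 0. Without BDNF replicate 1, Scn1a was called lower in H2BE-BDNF (-0.49, adjusted p = 0.00235).

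The size of the BDNF response was compared between viruses by a test of the difference, where 1.42% of tested genes were called (0.996% lower). Scn8a responded less under the H2BE virus, by 0.37 on the log2 scale (difference -0.37, SE 0.09, adjusted p = 0.0426). Given the levels above, the Scn8a groups with BDNF lay close together and those without BDNF differed. The comparison shares its samples with those above and is no separate support for them. This call was lost when any of 5 libraries was left out (Control replicate 1, either H2BE replicate or either H2BE-BDNF replicate, adjusted p 0.0625 to 0.328), and with length and GC content corrected for (-0.09, adjusted p = 0.732). The other 5 differences lay between -0.33 and -0.18 and were not called, beside a median of -0.01 over all tested genes and of -0.25 over the 847 genes with transcripts of at least 8000 bases, a length that all 4 alpha subunits reach. Without BDNF replicate 1 the Scn1a difference was called (-0.63, adjusted p = 0.00412).

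Transcript length moved with these comparisons. The 4 alpha subunits have transcripts of 8386 to 11436 bases, and 847 tested genes were in the same class of at least 8000 bases. Of those long genes 41.7% were called higher in BDNF against Control and 6.97% lower, 14.5% higher and 20% lower in H2BE-BDNF against H2BE, and 12.5% higher and 0% lower in H2BE against Control. Their median log2 fold changes were 0.19, -0.05 and 0.16 in these comparisons. For the difference of BDNF responses between viruses, 0% of the long genes were called higher and 10.2% lower, with a median of -0.25 and a slope of -0.1124 per doubling of length, the steepest of the 5 contrasts. Per doubling of transcript length, levels changed by -0.0018 and -0.008 on the log2 scale in H2BE-BDNF, 0.0275 and 0.0431 in BDNF, 0.0225 and 0.0188 in H2BE and -0.0679 and -0.0342 in Control, relative to the mean of all samples. With the length and GC trend of each library removed, Scn8a was still higher with BDNF, by 0.56 (SE 0.05, adjusted p = 4.38e-07) under the control virus and by 0.47 (SE 0.05, adjusted p = 7.03e-06) under the H2BE virus. Scn3a then fell by 0.39 (adjusted p = 0.000624) under the control virus and by 0.41 (adjusted p = 0.000929) under the H2BE virus, and Scn3b by 0.33 (adjusted p = 0.000262) and 0.52 (adjusted p = 5.69e-06). Scn2a was called lower in both, -0.15 (adjusted p = 0.0295) under the control virus and -0.20 (adjusted p = 0.0101) under the H2BE virus. No subunit was called for H2BE against Control after the correction.

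**Figure D4:**
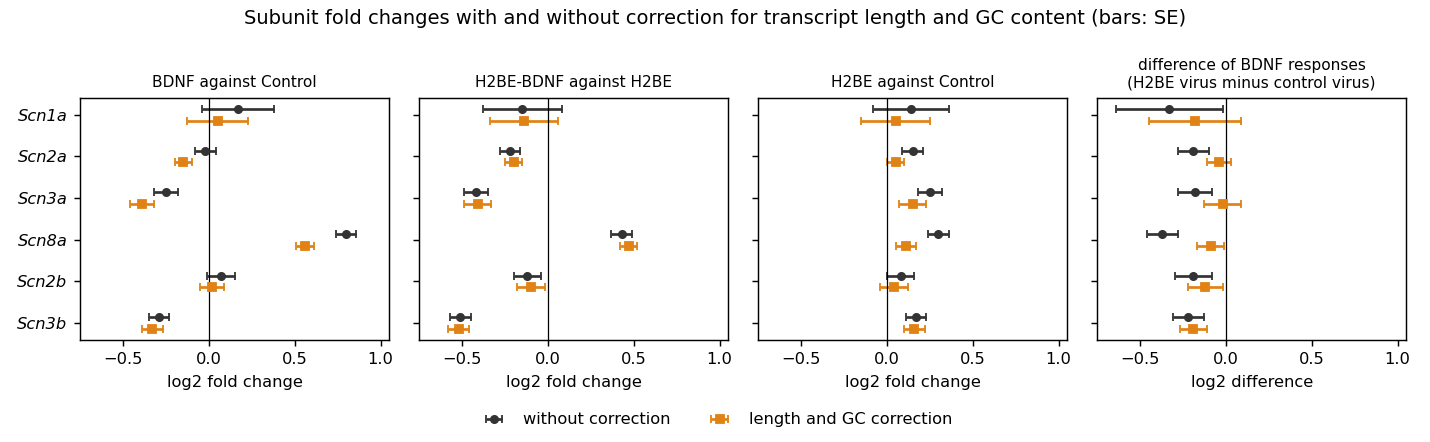
Log2 fold change of each tested subunit (horizontal axes, bars for the SE) without correction (black circles) and with correction for transcript length and GC content (orange squares). The BDNF rises of Scn8a are 0.80 and 0.43 without correction and 0.56 and 0.47 with it, and its difference between viruses is -0.37 without and -0.09 with correction.

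Genes known to work with sodium channels were described from lists written from general knowledge, but with earlier results of these data known. Counts over these lists are a description and no independent support. Ank3 encodes ankyrin-G, the scaffold that anchors sodium channels at the axon initial segment. It had 845 and 813 CPM in BDNF and 425 and 455 CPM in Control, a rise of 1.81-fold (log2 fold change 0.86, adjusted p = 4.72e-09). Under the H2BE virus Ank3 had 801 and 732 CPM in H2BE-BDNF and 603 and 566 CPM in H2BE (log2 fold change 0.39, adjusted p = 5.56e-05), and it was higher in H2BE than in Control (0.40, adjusted p = 0.00303). Scn8a was called higher in the same 3 comparisons, which share samples. After the length and GC correction the log2 fold changes of Ank3 were 0.65, 0.41 and 0.25 and its 3 calls stood (adjusted p at most 0.0349). The BDNF response of Ank3 was smaller under the H2BE virus (difference -0.47, adjusted p = 0.0112), a call lost after the correction.

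Of 13 initial segment scaffold and adhesion genes 7 rose and 0 fell with BDNF under the control virus (median 0.17), where 16.8% of all tested genes rose and 14.7% fell, among them Ank2 (0.47), Nfasc, which encodes the adhesion molecule neurofascin (0.34), and Camk2d (0.26). After the length and GC correction 4 of 13 rose, with Ank2 at 0.18, Nfasc at 0.16 and Camk2d at 0.23. Under the H2BE virus 3 rose and 2 fell (median -0.03), where 13.5% of all tested genes rose and 12.4% fell. L1cam, an axonal adhesion molecule, fell by 0.35 and the spectrin Sptan1 by 0.15. After the correction 4 rose and 1 fell there, and the Sptan1 call was lost (-0.10, adjusted p = 0.056). Of 4 intracellular FGF genes, whose proteins bind the tail of alpha subunits, Fgf13 fell under both viruses, by 0.32 in BDNF against Control and by 0.45 in H2BE-BDNF against H2BE, and Fgf11, Fgf12 and Fgf14 did not pass.

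Nalcn, the sodium leak channel, had 102 and 112 CPM in H2BE-BDNF against 138 and 135 in H2BE (log2 fold change -0.35, adjusted p = 0.000954), and 107 and 110 CPM in BDNF against 128 and 139 in Control (-0.32, adjusted p = 0.00102). Both comparisons had no overlap and Nalcn fell in each. Scn9a passed the filter at 0.957 to 3.95 CPM and was not called in any comparison, and Scn4a, Scn7a, Scn10a and Scn11a did not pass it.

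Among 10 RNA-binding proteins and repressors known to act on channel transcripts, 1 rose and 3 fell in BDNF against Control and 0 rose and 4 fell in H2BE-BDNF against H2BE, beside 31.4% and 25.9% of all tested genes called in these comparisons. Rbfox3, the neuronal splicing factor known as NeuN, fell most, by 0.59 under the control virus (adjusted p = 7.3e-06) and by 0.66 under the H2BE virus (adjusted p = 6.91e-06). Rbfox1 and Celf4, also neuronal RNA-binding proteins, fell in both. Rest, the repressor that silences neuronal genes including Scn2a in other cells, was low at 1.59 to 6.07 CPM and did not pass (log2 fold change 0.84, adjusted p = 0.0544 in BDNF against Control). The sodium pump, which restores the gradient that the channels use, gave 1 rise and 3 falls among 8 genes in BDNF against Control and 0 rises and 3 falls in H2BE-BDNF against H2BE, with Atp1b2 at -0.36 and -0.52. In H2BE against Control the calls were 3 rises among the 13 scaffold genes (Ank3, Ank2 and L1cam) and 0 in the intracellular FGF, RNA-binding and sodium pump lists. Over all tested genes 1.54% were called higher there and 0.989% lower. Of the genes of at least 8000 bases, a class that holds Ank3 and Ank2, 12.5% were called higher and 0% lower. Of Ank3, Ank2 and L1cam, Ank3 alone was called after the length and GC correction.

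**Figure D5:**
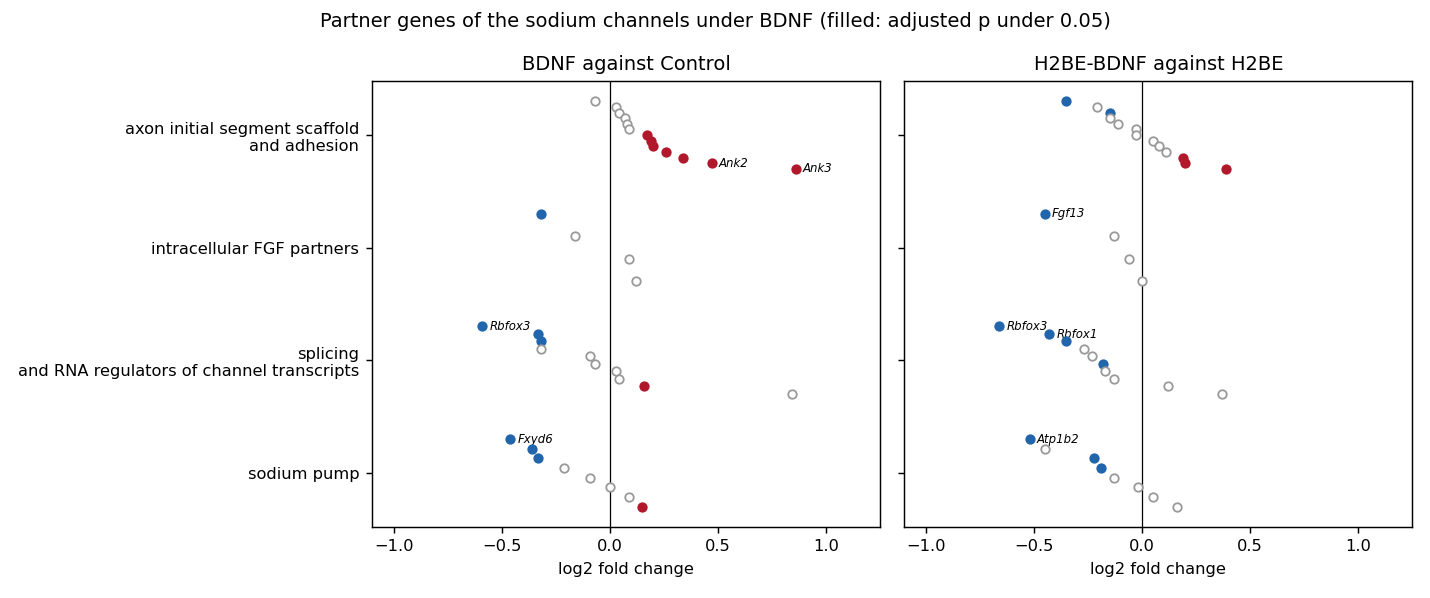
Log2 fold change (horizontal axes) of partner genes in 4 lists, for BDNF against Control on the left and H2BE-BDNF against H2BE on the right; red filled points were called higher, blue filled points lower, open points not called, and called genes beyond 0.4 are named. Ank3 is at 0.86 on the left and 0.39 on the right, and Rbfox3 at -0.59 and -0.66.

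Across the 8 samples the subunits did not vary as a block. As a description over samples that share libraries and treatment, Pearson's r of log2 CPM was 0.91 between Scn3a and Scn3b, -0.73 between Scn8a and Scn3b, -0.56 between Scn8a and Scn3a, and 0.82 between Scn1a and Scn2b. Of the genes averaging 10 CPM or more, those most like Scn8a were Exoc6b (r = 0.997) and Lrrc7 (r = 0.996, with log2 fold changes of 0.79 in BDNF against Control, 0.45 in H2BE-BDNF against H2BE and 0.27 in H2BE against Control). Sema4g (0.991) and Ppp1r9a (0.988) were most like Scn3a, and Caskin1 (0.996) and Eeig2 (0.992) most like Scn3b. Kif26b (0.967) and Mta3 (0.966) were most like Scn2a, Lrp6 (0.978) and Lrrc4c (0.952) most like Scn1a, and Gm43682 (0.979) and Nfic (0.945) most like Scn2b.

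The subunit genes lie in 3 places of the mm10 genome. On chromosome 2 lie Scn3a (65457118 to 65567627, minus strand), Scn2a (65620771 to 65767447, plus strand) and Scn1a (66270778 to 66440840, minus strand). On chromosome 9 lie Scn3b (40269217 to 40291618), Scn2b (45117782 to 45130070) and Scn4b (45138395 to 45154152), all on the plus strand. GENCODE M21 lists genes on the opposite strand within Scn1a, Scn2b, Scn3a and Scn3b, none of which shares exon bases with the subunit. The largest of those counted, Gm13630 within Scn1a, had 142 counts over all 10 libraries beside 5860 for Scn1a.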

How the data were processed

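PolyA RNA was sequenced in 10 libraries. Per the submitters' processing notes SAMtools, DESeq2 and deepTools were used with build mm10; no source used here gives the aligner, the counter or the annotation release. The authors deposited raw counts for 48526 genes and a signal table of normalized counts for 21862 genes, the raw counts of each library divided by 1 size factor. The raw counts were tested, and the normalized table gave the symbols. The members and lists were chosen with earlier results of these data known. edgeR 4.0.16 (R 4.3.3) fitted the 8 distinct libraries with filterByExpr (minimum count 10, total 15), TMM and 1 mean per group; calls are at an adjusted p of 0.05. SE is the log2 fold change over the root of F. Named genes were all 7 subunits, up to 4 of each partner list with the smallest p, up to 2 of each marker list, the 2 most alike genes per tested subunit (log2 of CPM plus 0.5), and H2bc21. Length and GC correction used a lowess (span 0.3) per library. A floor of 3 counts is 0.212 to 0.593 CPM and covers counting error only. The fit was also run on simulated counts, with or without a length trend in the BDNF group alone. The outcome is not reported here, and the setting was simpler than these libraries, each of which had its own trend. Alternatives were DESeq2 1.42.0, its size factors, no filter, replicate blocks, all 10 libraries, the third replicates, single libraries left out and only the groups compared. The setting with all 10 libraries counts the subset libraries as replicates, so its smaller p-values are no added support. Some genes of the partner lists are not reported here.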

Additional observations from a re-analysis of the deposited data

Results flagged for a closer look

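The BDNF response of Scn8a differed between viruses by a test of the difference itself: it was 0.43 in H2BE-BDNF against H2BE and 0.80 in BDNF against Control, a difference of -0.37 on the log2 scale (adjusted p = 0.0426, edgeR). In H2BE-BDNF both samples lay above both H2BE samples, and in BDNF both lay above both Control samples. The call was lost with length and GC content corrected for (-0.09, adjusted p = 0.732), with the crossed replicate block (adjusted p = 0.105) and when any of 5 libraries was left out (adjusted p 0.0625 to 0.328).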

How the results depend on the processing

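In BDNF against Control, 52 of 60 subunit values under settings that keep all libraries, and 41 of 48 with a library left out, kept their direction and their side of the threshold; in H2BE-BDNF against H2BE these were 60 of 60 and 45 of 48. Values that turned sign were all uncalled. In BDNF against Control they were Scn1a at -0.01 with replicate block and length and GC correction (-0.20 to 0.48 with a library left out), Scn2a at 0.02 both with all 10 libraries and with the third replicates (-0.11 to 0.05 left out) and Scn2b (-0.02 to 0.15 left out). In H2BE against Control they were Scn1a at -0.19 with the block and -0.23 with block and correction, Scn2a at -0.01 and Scn2b at -0.03 with both. In H2BE-BDNF against BDNF they were Scn2a at 0.01 and Scn8a at 0.02 with the correction and Scn8a at 0.02 with block and correction; leaving a library out gave Scn1a -0.49 to 0.19 and Scn2a -0.11 to 0, and for the difference of responses Scn1a -0.63 to 0.05.

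Subunits called in H2BE against Control were 1 as reported, 0 with the replicate block, with the length and GC correction and with both, 3 with all 10 libraries, 2 with only the groups compared, and 0 to 2 with a library left out. For the difference of responses they were 1 as reported, 0 with the correction and with block and correction, 2 with all 10 libraries, and 0 to 2 left out; in H2BE-BDNF against BDNF 0 to 1 left out. The cause was not tested. Scn8a's share of the alpha pool was 31.2% in H2BE-BDNF, 31.8% in BDNF, 22.1% in H2BE and 20.6% in Control by coding length, and 31.1%, 31.7%, 22% and 20.5% with no length scaling.

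The labels do not say that the numbers pair samples, so they were not taken as pairs. Deviations from the group means gave r from -0.305 to -0.165 for same-numbered libraries. With 2 samples a group these deviations mirror each other and each r recurs with the opposite sign, so r cannot show whether numbers pair samples. The replicate block moved the genes called to 132 from 340 in H2BE against Control. A crossed pairing, added after seeing the data, gave 4861 genes in BDNF against Control (4228 as reported), 3801 in H2BE-BDNF against H2BE (3484) and 0 for the difference (191), with 0 subunits called there. Because the crossing was picked from the same data, these counts are no evidence about pairing.

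Genes called moved more than the subunit counts. In BDNF against Control (4228) they were 2526 with DESeq2, 6460 with all 10 libraries and 2316 without Control replicate 1. In H2BE-BDNF against H2BE (3484) they were 2242 with DESeq2, 1923 when H2BE replicate 2 was left out and 2286 when H2BE-BDNF replicate 2 was. In H2BE against Control (340) they were 588 with no filter, 33 with the correction, 29 with block and correction, 1646 with all 10 libraries, 1144 with only the groups compared and 2 (without Control replicate 1) to 922 (without BDNF replicate 1). In H2BE-BDNF against BDNF (4) they were 163 with no filter, 12 with DESeq2, 89 with the block, 72 with block and correction, 28 with all 10 libraries, 1 with the third replicates or only the groups compared, and 1 to 762 (without BDNF replicate 1). For the difference (191) they were 434 with no filter, 6 with the correction, 15 with block and correction, 1195 with all 10 libraries, 360 with the third replicates and 2 to 917 (without BDNF replicate 1). With 2 samples a group, small differences were not detectable at this depth.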
